A study of Mus musculus with 8 samples.

Results

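The genes of mitochondrial fusion and fission, 10 in all, were followed through RNA sequencing of mouse heart muscle cells. These came from hearts in which the arginine methyltransferase Carm1 was targeted for deletion and from control hearts. They were chosen by name from the known machinery: the outer membrane fusion proteins Mfn1 and Mfn2, the inner membrane fusion protein Opa1 and its proteases Oma1 and Yme1l1, the fission dynamin Dnm1l, and its outer membrane receptors Fis1, Mff, Mief1 and Mief2. All 10 members were found among the 54752 gene IDs of the count table, and all 10 passed the filter on low counts together with the other genes of the 14665 that were tested.

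The series held 8 libraries in 4 groups of 2. Every mouse carried floxed Carm1 (Carm1 fl/fl). Control hearts received AAV-GFP and knockout (KO) hearts received AAV-CRE, an adeno-associated virus that delivers the recombinase, and each treatment was sampled at stages labelled 1w and 3w, called 1 and 3 weeks here. The labels do not say whether the weeks count from birth or from injection. The labels put injection on postnatal day 1 or 2 in the 1-week groups and on day 3 or 4 in the 3-week groups. These numbers run in the order of the samples within each treatment and may not be true days; if they are, injection day and stage cannot be told apart. The hearts were mosaic, holding infected and uninfected cells, and cardiomyocytes were taken out by Langendorff perfusion with no sorting step described. A group given Cre on wild-type alleles was not part of the design, so loss of Carm1 and any effect of the recombinase cannot be told apart. The labels do not say that replicates came from separate animals, so the p-values rest on the spread among libraries, which may be only technical.

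Mitochondria form a network that is remodelled by large GTPases of the dynamin family. Mfn1 and Mfn2 join outer membranes, Opa1 joins inner membranes and holds cristae together, and Oma1 and Yme1l1 cut Opa1 into its long and short forms. Dnm1l, the gene for the protein also called Drp1, is cytosolic until receptors on the outer membrane recruit it to constrict the organelle. In the heart, mitochondria shift from a sparse immature network to densely packed rows between myofibrils after birth, and loss of either mitofusins or Dnm1l in cardiomyocytes is known to cause cardiomyopathy. Protein cleavage, phosphorylation and recruitment, which control much of this system, are not visible in RNA.

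Between 20818285 and 53671626 reads were counted per library, and the members had 286 to 40224 counts each, so that counting error alone was at most 5.91% of a value. Levels are given as CPM, a gene's count scaled to the size of its library, with library sizes adjusted by edgeR's TMM method. Carm1 itself, the targeted gene, was at 40.5, 39.1, 39.9 and 39.3 CPM in the 4 control libraries, 22.2 and 22.4 CPM in the 1-week KO and 17.3 and 17.9 CPM in the 3-week KO. The summed CPM of 10 ventricular cardiomyocyte markers was 42190 to 42990 in 1-week controls against 39720 to 40060 in the KO, and 85630 to 90230 in 3-week controls against 70000 to 70530 in the KO, with 6 of 8 measured markers called lower and 1 higher at 1 week and 7 lower at 3 weeks. Markers of other cells moved as well: 8 fibroblast genes summed to 1226 to 1228 CPM in 1-week controls and 2264 to 2288 CPM in the KO, and to 277.5 to 278 CPM and 613.3 to 622.9 CPM at 3 weeks, with Tcf21 listed at 0 throughout. Macrophage and myeloid markers (8 genes) summed to at most 35.9 CPM in 1-week controls and at least 111 CPM in the KO, and to at most 60.3 CPM and at least 94.0 CPM at 3 weeks. The endothelial sums (7 genes) ran from 728.6 to 740.8 CPM in controls and 840.5 to 848.9 CPM in the KO at 1 week, and from 243 to 251 CPM and 318 to 324 CPM at 3 weeks. Atrial markers (5 genes) had the widest shift, from 53.6 to 55.7 CPM in 1-week controls to 590.6 to 596.7 CPM in the KO, and from 164 to 168 CPM to 586 to 600.0 CPM at 3 weeks. All 5 were called higher at 1 week, while at 3 weeks 1 was called higher and 4 lower. Of the smooth muscle and pericyte markers 4 of 7 were called higher and 2 lower at 1 week and 7 of 7 higher at 3 weeks, of the epicardial ones 4 of 5 higher at 1 week and 4 of 5 lower at 3 weeks, and of the erythroid ones 3 of 4 lower at 1 week and 2 of 4 higher at 3 weeks. The part of these markers in the results on the members was not tested, and in bulk RNA fewer cells of a type cannot be told apart from less RNA per cell. The cardiomyocyte markers Actc1 and Pln and broadly used mitochondrial genes such as Cox4i1 and Chchd2 are listed at 0 in all libraries, so a 0 in this table was not read as absence.

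The counts of 4 Y-linked genes split the groups in a way that the labels do not give. They were 1 and 0 in the 1-week control libraries and 3 and 2 in the 3-week KO libraries, but 6765 and 4814 in 3-week controls and 5025 and 4282 in the 1-week KO. A KO difference at one stage, or a stage difference in one genotype, therefore goes together with the presence of these transcripts, the 2 cannot be told apart, and the change of the KO difference between stages is fully aligned with it. The KO difference over both stages and the stage difference over both genotypes are balanced for it.

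The start regions of 4 members are shown. Mfn1 and Opa1, like Mff and Yme1l1, were lower in the KO at both stages, and Mief2 and Oma1 rose most between 1 and 3 weeks. Each line gives 300 bases from RefSeq on GRCm38.p6, 5′ to 3′ on the gene's strand, with the transcription start at base 251. Capitals mark matches to any of 6 motifs searched on both strands: the NRF1 core GCGCATGC, the ERR site TNAAGGTCA, the ETS/GABPA site CCGGAAGT, the CRE TGACGTCA, the YY1 site AANATGGCG and the E-box CACGTG.
Mfn1 (chr3:32529232-32529531, + strand): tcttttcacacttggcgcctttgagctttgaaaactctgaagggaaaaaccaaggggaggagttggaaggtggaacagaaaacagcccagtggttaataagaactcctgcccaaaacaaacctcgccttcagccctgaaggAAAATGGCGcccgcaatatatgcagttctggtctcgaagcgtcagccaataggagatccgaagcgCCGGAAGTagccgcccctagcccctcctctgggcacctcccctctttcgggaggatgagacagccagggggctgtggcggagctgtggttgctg
Opa1 (chr16:29579084-29579383, + strand): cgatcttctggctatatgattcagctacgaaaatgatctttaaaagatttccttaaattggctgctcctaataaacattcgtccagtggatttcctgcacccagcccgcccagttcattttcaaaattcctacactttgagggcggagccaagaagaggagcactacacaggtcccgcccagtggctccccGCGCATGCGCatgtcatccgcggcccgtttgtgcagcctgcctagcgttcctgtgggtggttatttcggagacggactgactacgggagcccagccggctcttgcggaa
Mief2 (chr11:60728148-60728447, + strand): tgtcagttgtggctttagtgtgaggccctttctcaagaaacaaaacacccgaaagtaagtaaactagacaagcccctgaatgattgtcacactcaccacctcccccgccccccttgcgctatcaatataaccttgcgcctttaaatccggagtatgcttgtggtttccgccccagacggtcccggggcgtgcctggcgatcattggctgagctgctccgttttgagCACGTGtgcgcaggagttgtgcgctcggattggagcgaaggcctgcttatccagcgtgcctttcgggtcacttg
Oma1 (chr4:103313596-103313895, + strand): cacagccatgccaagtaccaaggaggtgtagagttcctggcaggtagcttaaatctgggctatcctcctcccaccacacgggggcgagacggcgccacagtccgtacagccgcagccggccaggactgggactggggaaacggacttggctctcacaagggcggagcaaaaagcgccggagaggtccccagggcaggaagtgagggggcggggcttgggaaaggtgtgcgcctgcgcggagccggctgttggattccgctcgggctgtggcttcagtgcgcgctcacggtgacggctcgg
The Mfn1 window holds a YY1 match starting 109 bases and an ETS match starting 44 bases before the transcription start. The Opa1 window holds the palindromic NRF1 core on both strands, in 2 overlapping matches from 59 and 57 bases before the start. The Mief2 window holds an E-box 24 bases before the start, and the Oma1 window holds none of the 6 motifs. The windows of Mff and Yme1l1, which are not shown, hold none of the 6 motifs either. Among all 10 members, 3 had an ETS match (Mfn1, Fis1 and Mief1) against 4.31% of 27025 genes in the same table, 1 had the NRF1 core against 3.05%, 1 the YY1 site against 2.76% and 1 the E-box against 8.09%, and none had the ERR site (1.43%) or the CRE (2.03%). These matches are descriptions of letters in a window and were not tied to binding.

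All members are protein-coding genes of GRCm38 in the GENCODE M21 annotation. Mfn1 lies at chr3:32529465-32579239, Mfn2 at chr4:147873599-147904704, Opa1 at chr16:29579334-29654884, Dnm1l at chr16:16312230-16358959 and Fis1 at chr5:136953275-136966234. Mff lies at chr1:82724890-82752394, Mief1 at chr15:80234018-80253371, Mief2 at chr11:60728398-60732951, Oma1 at chr4:103313812-103371868 and Yme1l1 at chr2:23156369-23199260. Mfn2 and Dnm1l are on the minus strand and the other members on the plus strand. Other annotated genes share 4.67% of the exon bases of Dnm1l (an antisense gene), 2.63% of Mief1 and 2% of Mff, and the strand setting of the counting is not given in the sources used here, so a small part of these counts may belong to the neighbours.

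To set the members beside each other, levels were divided by the length of each gene's merged exons. In 1-week controls Mfn2 stood at 127 CPM per kb and Mfn1 at 36.2 CPM per kb. The next members were Fis1 at 22.5, Dnm1l at 20.3 and Opa1 at 19.0 CPM per kb. Mff (8.74), Yme1l1 (7.04), Oma1 (6.55) and Mief2 (4.44) were lower, and Mief1 was lowest at 2.54 CPM per kb. Averaged over the groups, the highest member exceeded the lowest by 53.7-fold. By 3 weeks Oma1 (15.2 CPM per kb) and Mief2 (12.7 CPM per kb) had passed Mff (9.78) and Yme1l1 (8.87) in the controls by this length, while the difference between Opa1 (28.6) and Fis1 (27.1) was within their SDs. The order among neighbours depends on the length used: with each gene's longest transcript in place of merged exons, Mff (24.4 CPM per kb) stayed above Oma1 (17.1) and Mief2 (13.7) in 3-week controls, Mief2 stayed below Yme1l1 (15.1), and Fis1 (49.0, from 27.1) stood above Dnm1l (40.6).

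**Figure D1:**
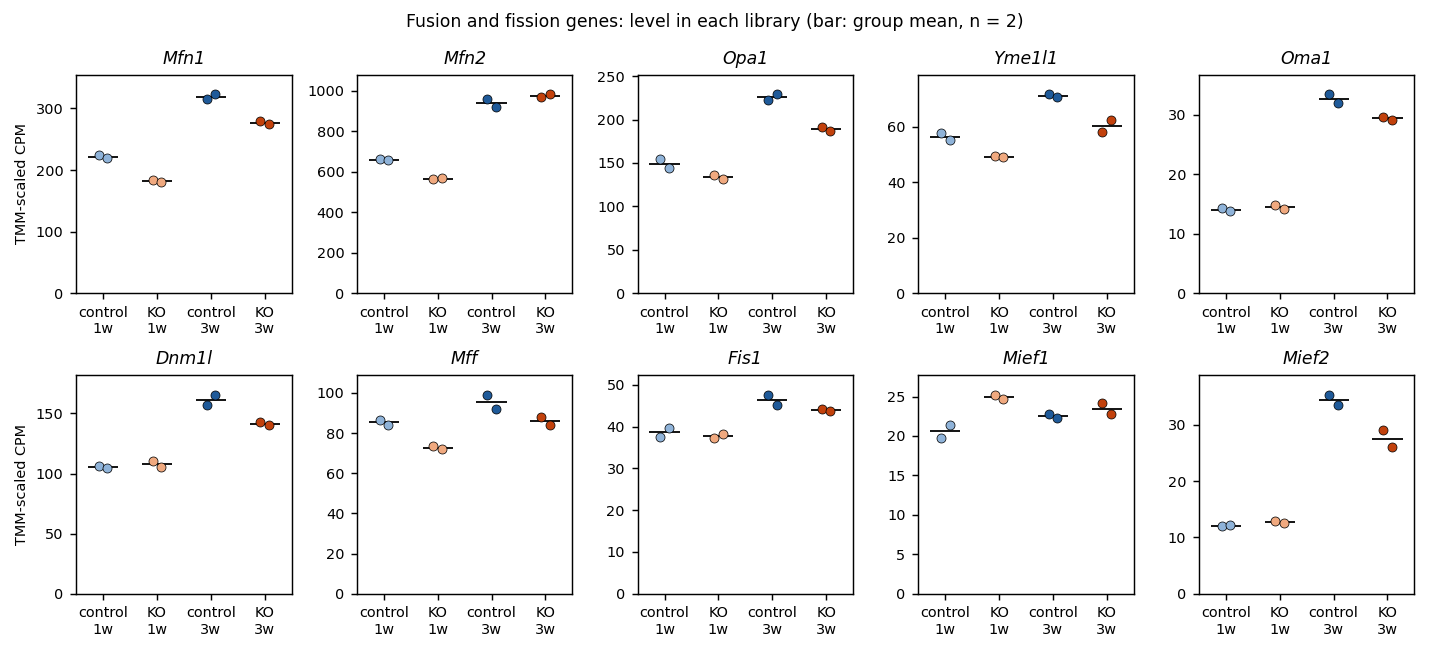
Levels of the 10 members in each of the 8 libraries, in CPM on axes that start at 0, with 1 panel per gene, a point for each library and a line at each group's mean. The points of the 3-week groups lie above those of the 1-week groups for most members, most widely for Mief2 and Oma1, and Mief1 is the member with little difference between stages.

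The first comparison asked how the members differ between the stages. Fusion and fission genes rose together: from 1 to 3 weeks 9 of the 10 members rose in controls and none fell, where 34.9% of all tested genes were called higher and 36.0% lower. The same 9 genes rose in the KO (33.2% of tested genes higher, 34.6% lower) and over both genotypes (32.3% higher, 34.3% lower), again with none lower. Their median log2 fold change was 0.52 in controls and 0.44 in the KO, against -0.03 and -0.02 over all genes tested. Cell type markers moved with stage too: in controls 8 of 8 ventricular cardiomyocyte markers rose (median 1.11), and 7 of 7 fibroblast (-2.24), 7 of 7 endothelial (-1.33) and 7 of 7 smooth muscle and pericyte markers (-1.60) fell, and their part in the rise of the members was not tested. A log2 fold change of 1 is a doubling, errors are standard errors (SE), and calls are adjusted p-values under 0.05 from the quasi-likelihood test of edgeR, adjusted by Benjamini and Hochberg's method over all tested genes.

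Mief2, a receptor that recruits Dnm1l to the outer membrane, had the largest rise. It was at 12.0 and 12.1 CPM in 1-week controls and 12.9 and 12.6 CPM in the 1-week KO, and at 35.4 and 33.5 CPM in 3-week controls and 29.1 and 26.0 CPM in the 3-week KO. Every 3-week library was above every 1-week library, and the stage difference was 2.86-fold in controls and 2.16-fold in the KO (log2 1.31 ± 0.085 over both genotypes, edgeR adjusted p = 8.68e-07). Oma1, the stress-activated protease of Opa1, went from 14.3 and 13.8 CPM to 33.4 and 31.9 CPM in controls and from 14.8 and 14.1 CPM to 29.7 and 29.1 CPM in the KO. Its libraries did not overlap between stages either, and it rose by 1.12 ± 0.058 on the log2 scale over both genotypes (adjusted p = 2.08e-07).

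The fusion GTPases and the fission dynamin formed a middle group. Over both genotypes Mfn2 rose by 0.65 ± 0.060 on the log2 scale, Mfn1 by 0.57 ± 0.040, Opa1 by 0.55 ± 0.044 and Dnm1l by 0.50 ± 0.054, each with an adjusted p of at most 2.35e-05. Yme1l1 (0.31 ± 0.043), Fis1 (0.24 ± 0.045) and Mff (0.20 ± 0.045) rose less, with adjusted p at most 0.00266. Mief1, the paralog of Mief2, was the exception: its log2 difference was 0.02 ± 0.061 (adjusted p = 0.807). All 4 of the 3-week libraries lay above all 4 of the 1-week libraries for 8 members, that is all but Mff and Mief1, against 26.4% of tested genes, and no member had the reverse, against 27.4%. The rise of Mff in controls (0.17 ± 0.041, adjusted p = 0.000255) was not called when genes under a mean CPM of 5 were left out of the fit (0.08, adjusted p = 0.0723).

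**Figure D2:**
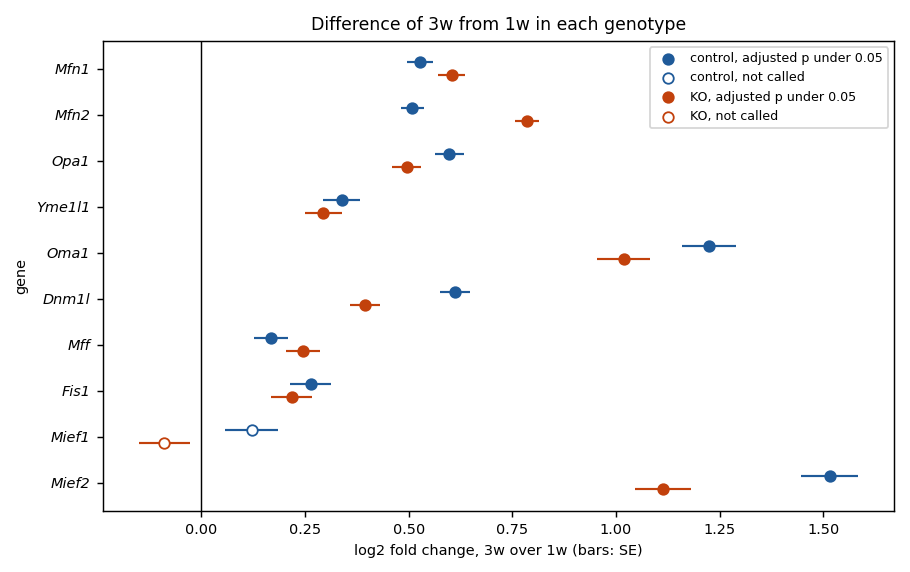
Log2 fold change from 1 to 3 weeks of each member in control and KO libraries, with bars of 1 SE. Mief2 and Oma1 are above 1 in both genotypes, Mief1 is at 0.12 in controls and -0.09 in the KO, and Mfn2 rises by 0.51 in controls and 0.79 in the KO.

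The second comparison asked how the members differ between KO and control at each stage. At 1 week 5 members fell in the KO (Mfn1, Mfn2, Opa1, Mff and Yme1l1), where 20.0% of tested genes were called lower, and Mief1 rose, where 23.0% were called higher. At 3 weeks 7 members fell (Mfn1, Opa1, Dnm1l, Mff, Mief2, Oma1 and Yme1l1) and none rose, where 24.8% of tested genes were called lower and 24.4% higher. Mfn1, Opa1, Mff and Yme1l1 fell at both stages, as did 9.87% of tested genes, and no member rose at both, as 10.8% of tested genes did. All differences were small: the median log2 fold change of the members was -0.10 at 1 week and -0.17 at 3 weeks, against 0.02 and 0.01 over all genes.

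Of the outer membrane fusion genes, Mfn1 fell at both stages and Mfn2 at 1 week. Mfn1 was at 224 and 219 CPM in 1-week controls and 184 and 181 CPM in the 1-week KO, and at 315 and 323 CPM in 3-week controls and 279 and 275 CPM in the 3-week KO. Both KO libraries were below both controls at each stage, with a log2 fold change of -0.28 ± 0.033 at 1 week (adjusted p = 8.64e-11) and -0.20 ± 0.032 at 3 weeks (adjusted p = 1.91e-07). Mfn2, which also tethers mitochondria to the endoplasmic reticulum, was at 664 and 658 CPM in 1-week controls and 565 and 569 CPM in the 1-week KO. It fell by 0.22 ± 0.028 on the log2 scale (adjusted p = 1.53e-09). At 3 weeks its values were 959 and 922 CPM in controls and 972 and 983 CPM in the KO, with both KO libraries slightly above the controls but no call (0.06 ± 0.028, adjusted p = 0.0975). That difference was called with genes under a mean CPM of 5 left out of the fit (0.10, adjusted p = 0.00142). It was 0.08 without replicate 1 of the 3-week controls and 0.0019 without replicate 2, each of which leaves 1 library in that group.

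Opa1 and its protease Yme1l1, the constitutive one, were lower in the KO at both stages. Opa1 was at 154 and 144 CPM in 1-week controls and 136 and 132 CPM in the KO, and at 222 and 229 CPM in 3-week controls and 191 and 186 CPM in the KO. The groups did not overlap at either stage, with log2 fold changes of -0.15 ± 0.036 (adjusted p = 0.000282) and -0.26 ± 0.035 (adjusted p = 5.19e-09). Yme1l1 was at 57.8 and 55.0 CPM against 49.3 and 49.1 CPM at 1 week, and at 71.6 and 70.6 CPM against 58.2 and 62.5 CPM at 3 weeks. Its KO libraries were again the lower ones, by -0.19 ± 0.045 (adjusted p = 0.000329) and -0.24 ± 0.044 (adjusted p = 6.89e-06) on the log2 scale. Oma1, with the values given above, was not called at 1 week (0.05 ± 0.072, adjusted p = 0.62) and was lower at 3 weeks (-0.16 ± 0.058, adjusted p = 0.0208). This 3-week call of Oma1 is the least secure among the members: it was lost with DESeq2 (adjusted p = 0.134) and with the mean CPM filter (0.0906). The difference was -0.13 without replicate 1 of the 3-week controls and -0.16 without replicate 2 of the 3-week KO.

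The fission dynamin Dnm1l was at 106 and 105 CPM in 1-week controls and 110.2 and 105 CPM in the 1-week KO, and the groups lay together (0.03 ± 0.037, adjusted p = 0.507). At 3 weeks it was at 157 and 166 CPM in controls and 143 and 140.2 CPM in the KO. Both KO libraries were below both controls, and Dnm1l fell by 0.18 ± 0.036 on the log2 scale (adjusted p = 1.64e-05).

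The 4 receptors of Dnm1l did not move as one. Mff, its main receptor in many cells, was at 86.5 and 84.0 CPM in 1-week controls and 73.4 and 71.9 CPM in the KO, and at 99.1 and 91.8 CPM in 3-week controls and 88.2 and 84.0 CPM in the KO. It was lower in the KO at 1 week (-0.23 ± 0.041, adjusted p = 4.86e-06) and at 3 weeks (-0.15 ± 0.041, adjusted p = 0.00152). Without replicate 1 of the 3-week controls the 3-week difference shrank to -0.10. Fis1 was at 37.5 and 39.7 CPM against 37.3 and 38.3 CPM at 1 week and 47.6 and 45.2 CPM against 44.1 and 43.8 CPM at 3 weeks. Its 1-week groups overlapped and its 3-week KO libraries were the lower ones, and it was not called at 1 week (-0.04, adjusted p = 0.597) or at 3 weeks (-0.08, adjusted p = 0.17). Without replicate 2 of the 3-week controls the 3-week difference of Fis1 was -0.14.

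Of the paralogous receptors Mief1 and Mief2, Mief1 rose at 1 week and Mief2 fell at 3 weeks. Mief1 was at 19.8 and 21.4 CPM in 1-week controls and 25.2 and 24.6 CPM in the 1-week KO, a rise of 0.27 ± 0.063 on the log2 scale (adjusted p = 0.000315). At 3 weeks it was at 22.7 and 22.3 CPM in controls and 24.2 and 22.8 CPM in the KO, which was not called (0.06 ± 0.064, adjusted p = 0.478). Its 4 KO libraries all lay above the 4 control libraries, as they did for 5.48% of tested genes, and no member had all 4 below (4.66%). Only Mief1 and Mff could show either order. For every other member all 3-week libraries lay above all 1-week libraries, which excludes both, so this does not set Mief1 apart. Mief2 was not called at 1 week (0.08 ± 0.078, adjusted p = 0.463) and fell by 0.33 ± 0.060 on the log2 scale at 3 weeks (adjusted p = 5.79e-06), the largest KO difference among the members.

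**Figure D3:**
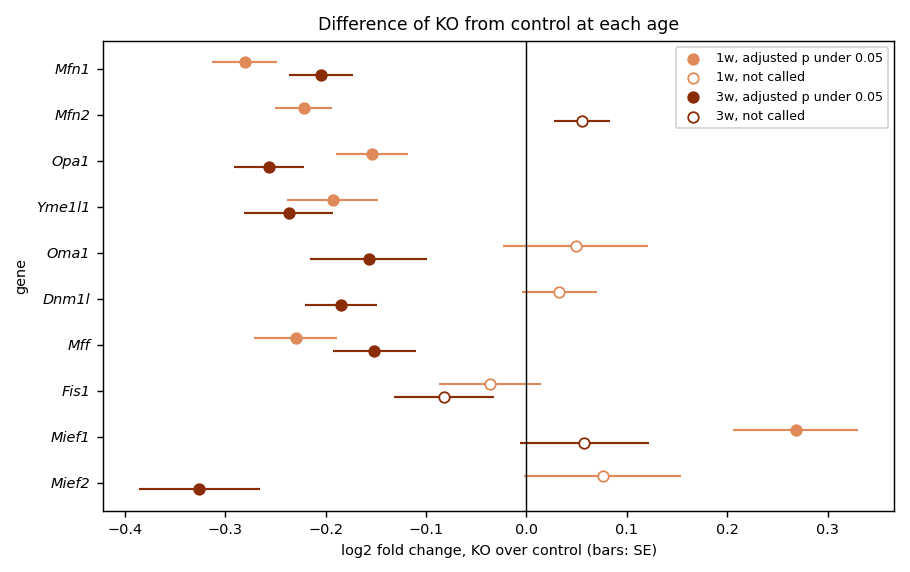
Log2 fold change of KO against control for each member at 1 and 3 weeks, with bars of 1 SE. Most points lie below 0 at both stages. Mief1 at 1 week (0.27) lies above, Mfn2 goes from -0.22 to 0.06, and Mief2 goes from 0.08 to -0.33.

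Over both stages, in a fit with stage and KO as separate terms, 4 members fell in the KO and none rose, where 14.5% of tested genes were called lower and 16.3% higher. These were Mfn1 (-0.24 ± 0.040, adjusted p = 0.00212), Opa1 (-0.21 ± 0.044, adjusted p = 0.00768), Yme1l1 (-0.22 ± 0.043, adjusted p = 0.00537) and Mff (-0.19 ± 0.045, adjusted p = 0.012). Mief1 was at 0.17 ± 0.061 (adjusted p = 0.0654), and Mfn2 (-0.08), Dnm1l (-0.08), Fis1 (-0.06), Mief2 (-0.13) and Oma1 (-0.06) had adjusted p between 0.26 and 0.476. When the 2 within-stage differences were averaged instead, which takes the change between stages out of the error, 7 members were called lower and 1 higher. Calls rose over all genes as well, to 3714 lower and 4032 higher of the 14665 tested. With injection day as a replicate block the same 4 members were called, while the genes called fell to 1315 higher and 1056 lower from 2385 and 2121.

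The KO difference itself differed between the stages for 3 members, by the interaction term of the 4-group fit, 1 of them higher at 3 weeks (17.6% of tested genes) and 2 lower (17.9%). It was 0.28 ± 0.040 higher at 3 weeks for Mfn2 (adjusted p = 5.04e-08), and lower for Dnm1l by -0.22 ± 0.052 (adjusted p = 0.000528) and for Mief2 by -0.40 ± 0.099 (adjusted p = 0.000769). For Mief1 (-0.21, adjusted p = 0.0593), Oma1 (-0.21, adjusted p = 0.0767) and Opa1 (-0.10, adjusted p = 0.105) no difference between stages was called, nor was one for Mfn1, Fis1, Mff and Yme1l1. These interaction values are fully aligned with the split of Y-linked transcripts and cannot be told apart from it, nor can the KO differences at a single stage.

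Ratios of paired members within a library do not depend on the scaling between libraries, and 3 were formed after the values had been seen. The count ratio of Mfn2 to Mfn1 was 2.97 and 3.00 in 1-week controls, 3.04 and 2.86 in 3-week controls, 3.08 and 3.15 in the 1-week KO and 3.48 and 3.58 in the 3-week KO. All 4 KO libraries were above all 4 controls, by 0.16 on the log2 scale. An exact two-sided permutation test gave p = 0.0286, the smallest that 4 against 4 can give, and 0.0571 after adjustment over 6 tests. The gap was wider at 3 weeks (group means 2.95 in controls and 3.53 in the KO) than at 1 week (2.99 and 3.11). The Mief2 to Mief1 ratio went from 0.607 and 0.566 to 1.56 and 1.50 in controls and from 0.509 and 0.511 to 1.21 and 1.14 in the KO. More counts thus came from Mief1 at 1 week and from Mief2 at 3 weeks, a difference of 1.29 on the log2 scale between stages (exact permutation p = 0.0286, adjusted 0.0571). The Oma1 to Yme1l1 ratio was 0.247 and 0.251 in 1-week controls, 0.301 and 0.288 in the 1-week KO, 0.467 and 0.453 in 3-week controls and 0.510 and 0.466 in the 3-week KO. It was 0.81 higher at 3 weeks on the log2 scale, with the same exact permutation p of 0.0286 and adjusted p of 0.0571. By the same permutation test, KO against control gave p = 0.514 for Mief2 to Mief1 and 0.543 for Oma1 to Yme1l1. The stage difference of Mfn2 to Mfn1 gave 0.371. No ratio passed adjustment. Since the ratios were picked from values already seen, these p-values describe the separation and are not an independent test of it.

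**Figure D4:**
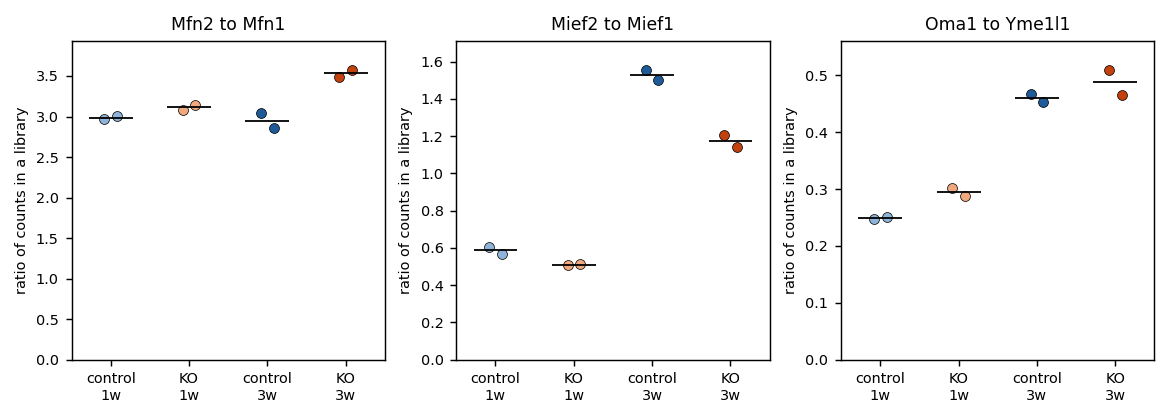
Count ratios of Mfn2 to Mfn1, Mief2 to Mief1 and Oma1 to Yme1l1 in each library, by group. The Mfn2 to Mfn1 ratio is 3.08 or more in every KO library and 3.04 or less in every control, and the other ratios separate 3 weeks from 1 week.

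The 9 lists of other mitochondrial genes place the members among their partners. For the genes of these lists, a value without a unit is a log2 fold change of KO against control, with its SE after ±, and it was called by edgeR's test unless said otherwise. Counts of called genes are to be read against all tested genes, of which 20.0% were lower and 23.0% higher at 1 week and 24.8% and 24.4% at 3 weeks. The interaction was called lower for 17.9% of tested genes and higher for 17.6%. Of 13 measured inner membrane proteases and scaffolds, 1 fell at 1 week and 12 fell at 3 weeks with none higher, at a median log2 fold change of -0.22, and the interaction was called for 7 of them, each lower at 3 weeks. Stoml2, a scaffold of the inner membrane, was at -0.46 ± 0.053 and Dele1, a stress messenger cut by Oma1, at -0.42 ± 0.035 at 3 weeks, and neither was called at 1 week. Ghitm, an inner membrane protein, was the 1 that fell at 1 week (-0.16 ± 0.032), and it also fell at 3 weeks (-0.21 ± 0.032). Of 15 genes of the cristae junction complex MICOS and of cristae, 3 rose and 5 fell at 1 week, the 3 being near the share over all tested genes. At 3 weeks 12 fell with none higher, at a median of -0.31 and with 11 interactions called lower. Apoo, a subunit of MICOS, was at 40.7 CPM in 1-week controls, 39.4 CPM in the 1-week KO, 87.6 CPM in 3-week controls and 57.1 CPM in the 3-week KO. It fell by 0.61 ± 0.044 at 3 weeks, and Micos10, which shapes cristae junctions, by 0.76 ± 0.039, where it was at -0.12 ± 0.040 at 1 week. Letm1 was higher at 1 week (0.33 ± 0.039) and lower at 3 weeks (-0.24 ± 0.036), and Atad3a was higher at 1 week (0.34 ± 0.046) and not called at 3 weeks (-0.01).

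Subunits of the respiratory chain encoded in the nucleus showed the broadest change: 20 of 24 fell at 1 week and 24 of 24 at 3 weeks, with median log2 fold changes of -0.14 and -0.44. All 24 also rose from 1 to 3 weeks in controls, at a median stage difference of 0.88, where the members' median was 0.52. The iron-sulfur subunits Sdhb (-0.09 ± 0.031 and -0.59 ± 0.031) and Uqcrfs1 (-0.17 ± 0.032 and -0.59 ± 0.032) fell at 1 and 3 weeks, as did Ndufs1 (-0.33 ± 0.033 and -0.30 ± 0.032) and Cox7b (-0.33 ± 0.031 and -0.51 ± 0.031). Among 14 genes of the PGC-1 and ERR transcription axis, which drives mitochondrial gene expression, 3 rose and 5 fell at 1 week and 1 rose and 4 fell at 3 weeks. The 3 higher at 1 week and the 4 lower at 3 weeks are near the shares over all tested genes. Ppargc1a, its main coactivator, had the largest KO difference at 1 week among the genes named here, at -1.66 ± 0.035, and was at -0.80 ± 0.035 at 3 weeks. The related Pprc1 was higher at both stages (0.33 and 0.71), Gabpa was lower at both (-0.49 ± 0.049 and -0.25 ± 0.051), and Esrrb was lower at 3 weeks (-0.58 ± 0.058) and not called at 1 week (0.05).

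Partners of the outer membrane fusion genes (12 measured) had 1 higher and 5 lower at 1 week and 2 higher and 5 lower at 3 weeks. Pink1, the kinase that marks damaged mitochondria, was lower at both stages (-0.40 ± 0.034 and -0.29 ± 0.032). Mtch2 fell at both stages (-0.12 ± 0.039 and -0.29 ± 0.038). Vcp fell at 1 week (-0.24 ± 0.041) and rose at 3 weeks (0.18 ± 0.042), and the ubiquitin ligase Huwe1 rose at 3 weeks (0.12 ± 0.032) with no call at 1 week. The mitofusin partner Miga2 rose at 1 week (0.26 ± 0.051) and fell at 3 weeks (-0.27 ± 0.048), and Miga1 fell at 1 week (-0.30 ± 0.074) and was not called at 3 weeks (0.02). Fission partners (14 measured) had 3 higher and 6 lower at each stage, with the counts of higher genes near the share over all tested genes. Mtfp1, an inner membrane protein that promotes fission, changed sign: it was at 35.8 CPM in 1-week controls and 48.2 CPM in the KO (0.42 ± 0.048), and at 145 CPM and 101 CPM at 3 weeks (-0.51 ± 0.040). Bnip3, a mitophagy receptor, was lower in the KO at 1 week (-0.22 ± 0.076) and at 3 weeks (28.6 against 54.3 CPM, -0.93 ± 0.058). Tbc1d15 fell at both stages (-0.30 ± 0.070 and -0.23 ± 0.065), Fundc1 fell at 1 week (-0.38 ± 0.078) and was not called at 3 weeks (-0.04), and the actin regulator Inf2 was higher at both stages (0.59 and 0.33).

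Enzymes that modify the Dnm1l protein (13 measured) had 2 higher and 7 lower at 1 week and 4 higher and 5 lower at 3 weeks. The kinase Prkcd rose at both stages (0.47 ± 0.094 and 1.15 ± 0.12). The cell cycle kinase Cdk1 also rose at both (0.44 ± 0.070 and 1.00 ± 0.28), from 17.5 to 23.8 CPM at 1 week but from 0.528 to only 1.09 CPM at 3 weeks. Camk2d, the main cardiac isoform of its family, fell at 1 week (-0.51 ± 0.034) and rose at 3 weeks (0.10 ± 0.034). The calcineurin subunits Ppp3ca (-0.32 ± 0.042 and -0.21 ± 0.044) and Ppp3cb (-0.11 ± 0.046 and -0.23 ± 0.045) and the protein kinase A subunit Prkaca (-0.18 ± 0.032 and -0.26 ± 0.032) fell at both stages. Prkcd is also strongly expressed in myeloid cells and Cdk1 in dividing cells, and 8 of 8 macrophage and myeloid markers were called higher in the KO at 1 week and 7 of 8 at 3 weeks, whose part in these values was not tested. Of 10 cardiolipin genes, 3 rose and 5 fell at 1 week and 2 rose and 5 fell at 3 weeks, with the counts of higher genes near the share over all tested genes. Lclat1 went from -0.45 to 0.32, Pnpla8 was lower at both stages (-0.46 and -0.47), and Prelid1 was higher at both (0.31 and 0.53). Mitochondrial transport genes (7 measured) had 3 lower at 1 week, among them Armc10 (-0.21) and Armcx3 (-0.19), and only Kif5b, a kinesin motor, changed at 3 weeks (0.40 ± 0.041).

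**Figure D5:**
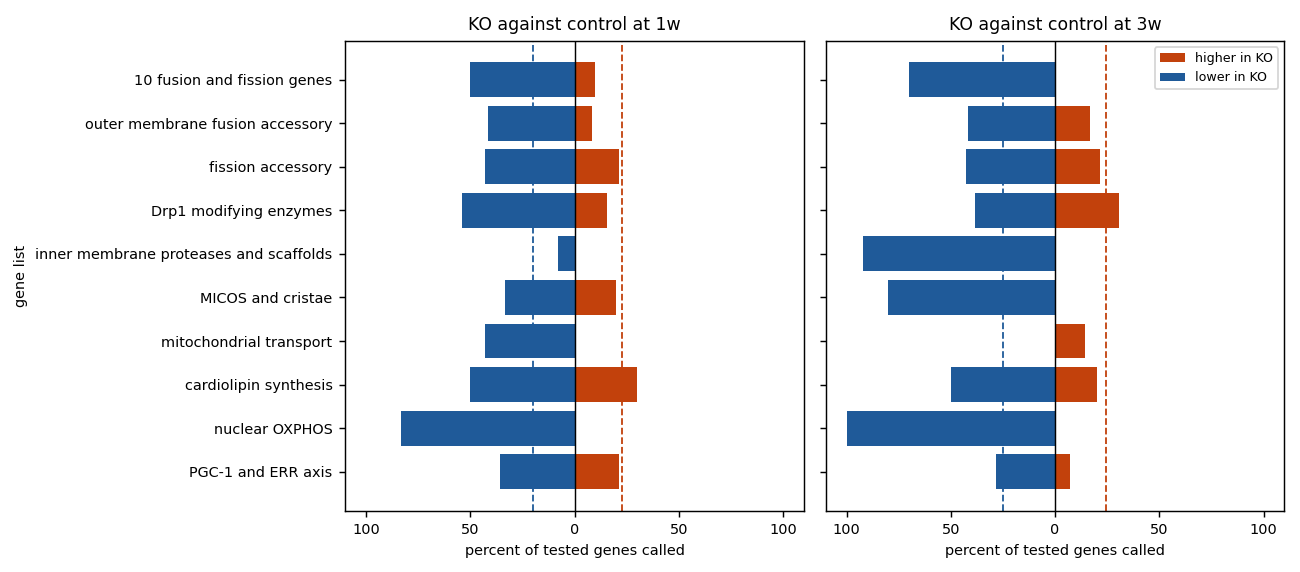
Share of measured genes called lower (blue) and higher (orange) in the KO at 1 and 3 weeks, for the 10 members and 9 lists of related mitochondrial genes, with dashed lines at the share over all tested genes. The respiratory chain list is lower at both stages, and the inner membrane and cristae lists reach 12 of 13 and 12 of 15 at 3 weeks.

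Over the 8 libraries the members moved together, as a description of libraries that share stage and scaling. The highest Pearson correlations of log2 CPM were 0.995 between Mief2 and Oma1, 0.989 between Dnm1l and Mief2 and 0.986 between Mfn1 and Opa1. The 36 pairs without Mief1 had correlations of 0.727 or more, and the pairs with Mief1 ran from -0.498 to 0.112. The genes most like Mief2 were Ift172 (0.999), Pdrg1 (0.998) and St3gal3 (0.998), and those most like Oma1 were Twf2, Mt2 and Slc48a1, each at 0.999. Such likeness is common here: 1156 of 6856 genes compared had a correlation above 0.95 with Mief2 and 1132 with Oma1.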

How the data were processed

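The deposited values are raw counts per gene from RNA sequencing of isolated cardiomyocytes, in 1 table of 8 libraries with a group label each. Per the submitters' processing notes, the authors used FastQC, MultiQC, HISAT2, featureCounts and DESeq2 with mm10. Their versions, the strand setting and the annotation were not given in the sources used here. Libraries, per the labels' protocols, came from total RNA with SMART and Nextera XT kits.

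The filter filterByExpr of edgeR was applied to these counts (minimum count 10, minimum total 15), libraries were scaled by TMM (factors 0.759 to 1.23), and differences were tested with edgeR 4.0.16 in R 4.3.3 by a robust quasi-likelihood fit of 4 groups (4 residual degrees of freedom, common coefficient of variation 3.03%) or an additive fit of stage and KO (5). SEs were derived from the F statistic. The fits were also run on simulated counts drawn from their own estimates of spread, with far fewer altered genes than were called here. That run gives no error rate for these data. Correlations were taken on log2 CPM (prior count 2), and GENCODE M21 named 54723 of the IDs. Of 205 listed symbols, 204 matched. A list is used without 1 of its genes, which is not reported here.

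The members and gene lists were chosen with earlier results of these data known. All members are named. From each list, the 2 called genes that rose most and the 2 that fell most in a KO comparison were eligible if their mean CPM was at least 5. Likeness took the 3 closest genes (mean CPM 10 or more) to each of the 2 members that changed most. Alternatives were DESeq2 1.42.0, other scalings and filters, a replicate block and leaving out each library. Same-numbered libraries did not deviate together (correlations of -0.196 to 0.0236), so the numbers were not taken as pairs. Replicates differed beyond counting noise (chi-square of 1.45 to 6.95 per gene), so none was treated as a copy of the same library. This check cannot tell whether replicates came from separate animals.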

Additional observations from a re-analysis of the deposited data

Results flagged for a closer look

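A KO difference that itself differed between 1 and 3 weeks, by the interaction term of edgeR's fit, was found for 3 members and for genes of the lists named above. Such a difference was called higher at 3 weeks for 17.6% of tested genes and lower for 17.9%. The members, with 1 of 10 higher and 2 of 10 lower, are near these shares. Each value is the KO difference (log2) at 3 weeks less that at 1 week, and all of them are aligned with the split of Y-linked transcripts, whose part was not tested. Among the members the values were 0.28 for Mfn2, -0.22 for Dnm1l and -0.40 for Mief2.

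Among fusion partners the values were 0.42 for Vcp, 0.32 for Miga1, 0.12 for Pink1, -0.17 for Mtch2 and -0.53 for Miga2. Among fission partners they were 0.33 for Fundc1, 0.22 for Arpc2, -0.71 for Bnip3 and -0.94 for Mtfp1. Prkcd was at 0.68 and Camk2d at 0.61. Of the inner membrane and cristae genes, Micos10 was at -0.64, Apoo at -0.57, Letm1 at -0.57, Stoml2 at -0.55, Atad3a at -0.35, Dele1 at -0.34 and Dnajc11 at -0.21.

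The respiratory chain subunits Sdhb (-0.50), Uqcrfs1 (-0.42), Uqcrc2 (-0.25) and Cox7b (-0.18) were lower in the KO by a larger margin at 3 weeks. In the PGC-1 and ERR axis, Ppargc1a was at 0.86, Pprc1 at 0.38, Gabpa at 0.24, Esrra at -0.30 and Esrrb at -0.63. Cardiolipin genes gave 0.77 for Lclat1, 0.22 for Prelid1 and -0.33 for Pgs1, and transport genes 0.43 for Kif5b and 0.35 for Armcx3.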

How the results depend on the processing

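Of 1100 member differences recomputed under alternative settings, 1068 kept their direction and their side of the threshold. This count includes the fits that left 1 library in a group. Scaling by DESeq2's method, leaving out mitochondrially encoded genes, a fit without robust moderation and both forms of replicate block (100 member differences under a block) changed no member's call. The block by injection day lowered the genes called over both stages to 1315 higher and 1056 lower. With the mean of within-stage differences, 4032 genes were called higher and 3714 lower over both stages, with 1 member higher and 7 lower.

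DESeq2 called fewer genes: 1806 higher and 1949 lower at 1 week (3373 and 2932 with edgeR), 2347 higher at 3 weeks (3577), and interactions of 1508 higher and 1596 lower (2587 and 2628). With only genes of mean CPM of at least 5, 1 member was higher at 3 weeks (Mfn2) and 1 over both stages (Mief1 at 0.21, adjusted p = 0.0275). Mief1 was also lower with stage in the KO (-0.17, adjusted p = 0.0114). Under this setting fewer genes were tested, and 3331 genes rather than 5026 were lower with stage over both genotypes. It also moved the 3-week KO differences of all members upward by a like amount, as for Mfn1 (-0.20 to -0.16) and Mfn2 (0.06 to 0.10). The 1-week KO differences moved upward too, as for Mfn1 (-0.28 to -0.24). The stage difference of Mfn1 in controls went from 0.53 to 0.44. Library scaling was computed anew on the genes kept, and such shifts are not part of the SEs. Without a low-count filter 5 members rather than 2 had a negative interaction, which in the main fit 17.9% of tested genes had. The cause of these shifts was not tested further.

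Leaving out each library left 1 library in its group, so only sizes are given. KO differences at 3 weeks ran from -0.23 to -0.21 for Mfn1, -0.29 to -0.25 for Opa1 and -0.23 to -0.17 for Dnm1l. They ran from -0.23 to -0.098 for Mff, -0.42 to -0.26 for Mief2, -0.21 to -0.13 for Oma1 and -0.31 to -0.20 for Yme1l1. For Mfn1 the fit of all libraries gave -0.20, just outside its range. Interactions ran from 0.24 to 0.32 for Mfn2, -0.26 to -0.19 for Dnm1l and -0.48 to -0.32 for Mief2. Stage differences in controls stayed above 0 for every member, the lowest being 0.075 for Mief1. Signs turned only where no call was made: Fis1 at 1 week ran from -0.074 to 0.012 (0.0006952 with the mean CPM filter), Dnm1l at 1 week from -0.00068 to 0.068, Mief1 at 3 weeks from -0.00093 to 0.083 and with stage over both genotypes from -0.024 to 0.077 (-0.067 with the mean CPM filter). The interactions of Fis1 ran from -0.098 to 0.0090 and of Yme1l1 from -0.094 to 0.010. Depth limits the lowest members: at the lowest member count of 286, counting error alone was 5.91%, against a common coefficient of variation of 3.03%.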
